A study of Arabidopsis thaliana with 4 samples.

Results

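The genes described here carry new proteins into and through the membrane of the endoplasmic reticulum (ER) and modify them there. They are 32 loci of *Arabidopsis thaliana* that code for the SEC61 channel, its partners SEC62 and SEC63, the signal recognition particle (SRP) and its receptor, the translocon-associated protein (TRAP) complex, signal peptidase and oligosaccharyltransferase. Members were chosen by what their proteins do and were found on the array through the RefSeq accession of each probe. Of the 32 loci 31 had a matching probe, with 44 probes between them, among 25410 loci tested, and the SEC61β gene AT5G60460 had none and was not analysed here.

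Seedlings of the *bli-1* mutant were compared with Col-0, the wild type, on single color Agilent arrays with 2 biological replicates per genotype. *bli-1* carries the T-DNA insertion SAIL_107_D04 in *BLISTER* (*BLI*), the gene of a coiled-coil protein found in plants alone. Whole seedlings of both genotypes were harvested 12 days after germination from continuous light. They grew on ½ Murashige and Skoog medium with sucrose and without any stress treatment. BLI binds the Polycomb protein CLF, and the arrays were run to learn which transcripts depend on BLI and how many of them are Polycomb targets. The genes of ER entry are followed here through that comparison.

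In eukaryotes the SRP binds a signal peptide as it leaves the ribosome and docks at the SRP receptor, and the chain is then threaded through a channel of SEC61α, SEC61β and SEC61γ. Signal peptidase cuts the signal peptide off, and oligosaccharyltransferase moves a preassembled glycan from dolichol to asparagine residues of the chain. In plants, as in animals and yeast, many genes for these machines are induced when unfolded proteins accumulate in the ER, and several subunits exist as small families of paralogs.

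Values are log2 signals after background correction and quantile normalization of the 4 arrays, in the order replicate 1, replicate 2. A log2 fold change is *bli-1* minus Col-0, and its SE and 95% interval come from limma, fitted over all 34290 genes and transcripts. A gene is called when its p-value after Benjamini-Hochberg adjustment is below 0.05 and the change is at least 1.5-fold. Levels of different genes are not set against each other, since probes differ in how strongly they hybridize.

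The mutated gene *BLI* (AT3G23980) gave log2 signals of 7.38 and 7.68 in *bli-1*, against 9.17 and 8.99 in Col-0, which is a log2 fold change of -1.55 ± 0.16 (SE, n = 2 each, limma adjusted p = 0.0823). Gene spots that passed as well above background made up 77.4% and 91.7% of the *bli-1* arrays, against 74.7% and 76.4% of the Col-0 arrays. The array of *bli-1* replicate 1 lay alone on a slide of its own, and the other 3 arrays shared a slide. Over all genes the 2 *bli-1* arrays differed by a median of 0.22 log2 units and the 2 Col-0 arrays by 0.11, but over the 31 genes of ER entry these differences were 0.10 and 0.09. All 7 shoot photosynthesis markers were above background on all arrays, with summed linear signals of 386800 to 418400 in *bli-1* and 395500 to 427000 in Col-0. Of these 7 markers 2 passed an unadjusted p of 0.05 in limma with at least a 1.5-fold change as lower, where 2.98% of all loci did. Of 10 root markers 9 were above background on all arrays (sums of 12000 to 24650 in *bli-1* and 16260 to 18300 in Col-0, with 2 past the same rule as lower), and of 4 seed storage markers 0 were, with sums of 305.9 to 382.8 in *bli-1* and 299.2 to 328.1 in Col-0. The part of these differences in the values below was not tested, and in whole seedlings fewer cells of a type and less RNA per cell cannot be told apart.

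A difference of 1.5-fold or more was reached by 4 of the 31 genes of ER entry as higher in *bli-1* and by 0 as lower, where 4.93% of all loci were that much higher and 3.83% that much lower. The 4 were a SEC61β gene (AT3G60540, 8.09-fold), a SEC61α gene (AT1G29310, 3.96-fold), the SPC22/23 subunit of signal peptidase (AT3G05230, 1.80-fold) and SRP54A (AT1G15310, 1.70-fold). None of the 31 was called in either direction (0 higher and 0 lower in limma), where 0.11% of all loci were called higher and 0.0236% lower. At an unadjusted p below 0.05 with the same fold change, AT3G60540, AT1G29310 and AT3G05230 were higher and 0 were lower, where 3.01% of all loci were higher and 2.98% lower by this rule. At any fold change these 3 were also the only ones of the 31 with an unadjusted p below 0.05, which 11.8% of all loci had. The other 27 lay between -0.27 and 0.31 on the log2 scale.

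**Figure D1:**
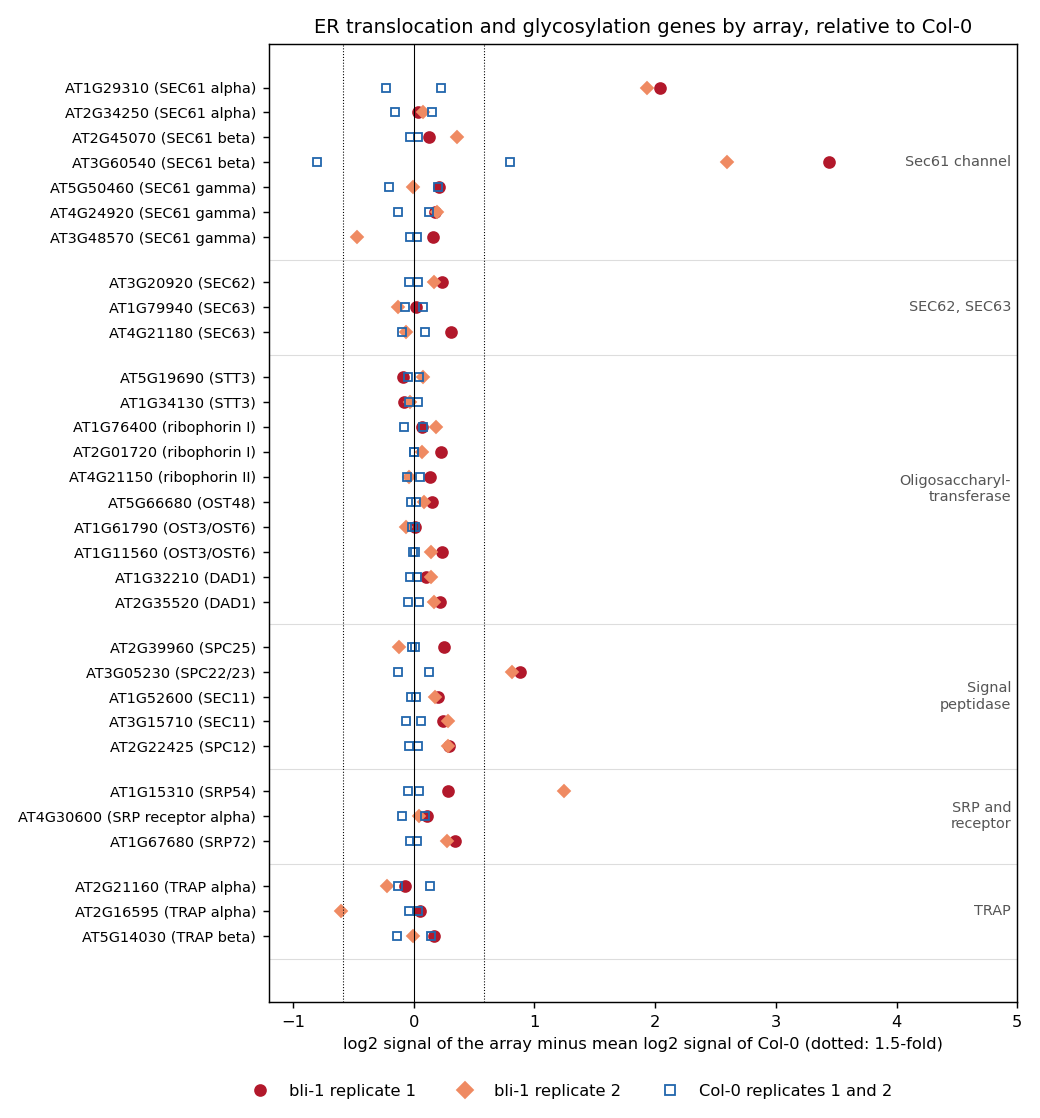
Log2 signal of each array minus the mean log2 signal of Col-0 (x axis) for the 31 genes of ER translocation and glycosylation, in 6 groups by role. Circles are *bli-1* replicate 1, diamonds *bli-1* replicate 2 and open squares both Col-0 replicates. The SEC61β gene AT3G60540 and the SEC61α gene AT1G29310 lie far to the right on both *bli-1* arrays, SRP54A on 1 of them, and most other genes stay inside the dotted lines of a 1.5-fold change.

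The SEC61 channel held the 2 largest differences, in 1 paralog of SEC61α and 1 of SEC61β. SEC61α forms the pore itself. AT1G29310 on chromosome 1, a SEC61α gene, gave log2 signals of 12.49 and 12.39 in *bli-1*, against 10.68 and 10.23 in Col-0. Both *bli-1* arrays lay above both Col-0 arrays, and the intensities before any correction were 6575 and 6377 in *bli-1* and 1095 and 1177 in Col-0. The means were 12.44 ± 0.07 in *bli-1* and 10.46 ± 0.32 in Col-0 (SD, n = 2 each), and the log2 fold change was 1.99 (SE 0.19, 95% interval 1.48 to 2.49). This had the smallest p of the 31 genes (limma unadjusted p = 0.000189, adjusted p = 0.0756), and it exceeded the change of 99.84% of all loci. The gene is represented by 1 probe.

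The paralog AT2G34250 on chromosome 2 showed no such difference, with log2 signals of 10.44 and 10.48 in *bli-1*, against 10.55 and 10.25 in Col-0. The *bli-1* arrays lay between the Col-0 arrays. Its log2 fold change was 0.06 (SE 0.16, 95% interval -0.34 to 0.46), and its 4 probes ranged from -0.10 to 0.23. The log2 ratio of AT1G29310 to AT2G34250 was 1.93 higher in *bli-1*, with an SD of 0.10 in *bli-1* and 0.11 in Col-0. The smallest two-sided p that exact permutation of 2 against 2 arrays allows is 0.333, and this ratio gave it (adjusted p = 0.741 over 20 paralog pairs). A further SEC61α gene, AT1G78720, was well above background on 1 *bli-1* array and on 0 Col-0 arrays, and no fold change is given for it.

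SEC61β is a small tail-anchored subunit of the channel. AT3G60540 on chromosome 3 gave log2 signals of 11.99 and 11.14 in *bli-1*, against 9.35 and 7.75 in Col-0. The genotypes did not overlap, but the replicates of each lay far apart, as did the uncorrected intensities of 4622 and 2728 in *bli-1* and 419 and 149 in Col-0. The log2 fold change of 3.02 was the largest among the 31 genes and came with the widest interval (SE 0.60, 95% interval 1.46 to 4.57, limma unadjusted p = 0.00444, adjusted p = 0.221). It moved to 2.19 without Col-0 replicate 2 and to 3.92 without Col-0 replicate 1. This gene too is represented by 1 probe.

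The paralog AT2G45070 on chromosome 2 had 11.32 and 11.55 in *bli-1*, against 11.22 and 11.16 in Col-0. Its arrays did not overlap either, yet the log2 fold change was only 0.25 (SE 0.14, 95% interval -0.13 to 0.62, limma unadjusted p = 0.149). The difference in the log2 ratio of AT2G45070 to AT3G60540, *bli-1* minus Col-0, was -2.77 (SD 0.76 in *bli-1* and 1.09 in Col-0, exact permutation p = 0.333, the smallest that the design allows). SEC61γ, the third subunit of the channel, has 3 genes in the set, and their log2 fold changes were 0.11 for AT5G50460, 0.19 for AT4G24920 and -0.16 for AT3G48570. None of the 3 had an interval that left out 0. In AT3G48570 the *bli-1* replicates fell on either side of Col-0, at 9.07 and 8.44 in *bli-1*, against 8.94 and 8.89 in Col-0. These are means over 2 probes, with log2 fold changes of -0.39 and 0.08. Only the first of them, the dimmer one, was below both Col-0 arrays on *bli-1* replicate 2.

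**Figure D2:**
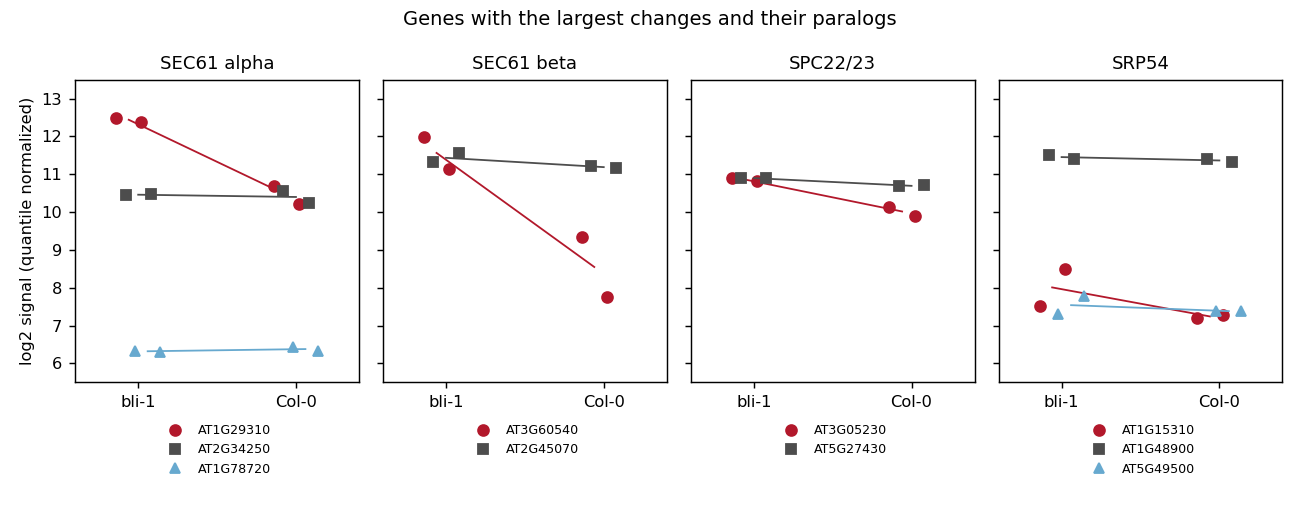
Log2 signal on each array (y axis, quantile normalized) of the 4 genes with the largest changes, as circles, and of their paralogs, as squares and triangles, with *bli-1* on the left and Col-0 on the right of each panel and a line between the genotype means. Only slopes can be compared between genes, and the lines of AT1G29310 and AT3G60540 are steep where those of AT2G34250 and AT2G45070 are nearly flat.

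SEC62 and SEC63 assist the channel with proteins that arrive after translation, and in plants SEC63 is represented by the J-domain proteins ERDJ2A and ERDJ2B. SEC62 (AT3G20920) had the smallest p of this group (limma unadjusted p = 0.168), with log2 signals of 8.71 and 8.64 in *bli-1*, against 8.44 and 8.51 in Col-0. The *bli-1* arrays were above the Col-0 arrays by a small margin, and the log2 fold change was 0.20 (SE 0.12). *ERDJ2A* (AT1G79940) was at -0.06 (SE 0.14) and *ERDJ2B* (AT4G21180) at 0.12 (SE 0.18) on the same scale. The value of *ERDJ2B* is a mean over 2 probes that disagreed, and its sign was the other one under 5 of 16 alternatives, down to -0.57. The first probe had 9.71 and 9.57 in *bli-1*, against 9.01 and 8.94 in Col-0, which is a log2 fold change of 0.66 (limma unadjusted p = 0.00483, adjusted over all probes 0.230). The second had 6.90 and 6.29 in *bli-1*, against 7.16 and 6.85 in Col-0, which is a log2 fold change of -0.41 (limma unadjusted p = 0.165). The second probe is the dimmer one. Its 6.29 on *bli-1* replicate 2 lay near the lowest value that passed as well above background on that array (6.10). The part of this in the disagreement, and which probe follows the transcript more closely, was not tested.

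The 5 genes of signal peptidase in the set had log2 fold changes above 0, with a median of 0.26, and 4 of the 5 did without *bli-1* replicate 1. Paralogs of 3 of them were also measured, and not all lay above 0 (0.20 for the SPC22/23 gene AT5G27430, 0.23 for the SPC12 gene AT4G40042 and -0.10 for the SPC25 gene AT4G04200). The SPC22/23 gene AT3G05230, on chromosome 3, codes for a noncatalytic subunit and stood apart from the rest. Its log2 signals were 10.90 and 10.83 in *bli-1*, against 10.14 and 9.89 in Col-0, and its uncorrected intensities, averaged over 2 probes, were 2260 and 2281 in *bli-1* and 768.5 and 945.2 in Col-0. The genotypes were clearly separate and the spread within each was small (means 10.87 ± 0.05 in *bli-1* and 10.02 ± 0.18 in Col-0, SD, n = 2 each). The log2 fold change was 0.85 (SE 0.15, 95% interval 0.47 to 1.23, limma unadjusted p = 0.00249, adjusted p = 0.178), and its 2 probes gave 0.92 and 0.77. The paralog AT5G27430 had 10.90 and 10.90 in *bli-1*, against 10.68 and 10.71 in Col-0, which is a log2 fold change of 0.20 (SE 0.12). The log2 ratio of AT3G05230 to AT5G27430 was 0.64 higher in *bli-1* (SD 0.05 in *bli-1* and 0.19 in Col-0, exact permutation p = 0.333).

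SEC11 is the catalytic subunit of signal peptidase, and its 2 genes had log2 fold changes of 0.19 (AT1G52600) and 0.26 (AT3G15710). SPC12 (AT2G22425) had 12.18 and 12.17 in *bli-1*, against 11.92 and 11.84 in Col-0, which is a log2 fold change of 0.29 (SE 0.12, 95% interval -0.03 to 0.61, limma unadjusted p = 0.0650). In these 3 genes both *bli-1* arrays lay above both Col-0 arrays, but none passed an unadjusted p of 0.05. SPC25 (AT2G39960) had a log2 fold change of 0.07 and its arrays overlapped. In its paralog AT4G04200, with 6.80 and 6.70 in *bli-1*, against 6.87 and 6.83 in Col-0, both *bli-1* arrays lay below both Col-0 arrays by a small margin (SE 0.12, limma unadjusted p = 0.476). AT4G04200 is a dim gene, and the part of this in its value was not tested.

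Of the 10 genes of oligosaccharyltransferase in the set 9 were well above background on all arrays. Their median log2 fold change was 0.12, with 6 above and 3 below 0, and each of the 9 intervals lay inside a 1.5-fold change in both directions (lowest bound -0.37, highest 0.52), as did the intervals of 48.8% of all loci. Both OST4 genes, measured outside the set, were at -0.012 (AT3G12587, SE 0.12) and -0.39 (AT5G02502, SE 0.23, 95% interval -1.001 to 0.22, limma unadjusted p = 0.161). AT5G02502 had 6.83 and 6.20 in *bli-1*, against 6.94 and 6.87 in Col-0, so that its interval reached past a 1.5-fold change. This gene is dim. Its 6.20 lay near the lowest value that passed as well above background on *bli-1* replicate 2 (6.10), and the part of this was not tested. The catalytic subunits *STT3A* (AT5G19690) and *STT3B* (AT1G34130) had log2 fold changes of -0.0022 (SE 0.13) and -0.05 (SE 0.12). Both had overlapping arrays, with 10.39 and 10.55 in *bli-1* against 10.52 and 10.43 in Col-0 for *STT3A*. *DAD2* (AT2G35520), a gene for the small DAD1 subunit, had the smallest p of the group (limma unadjusted p = 0.180), with 9.48 and 9.43 in *bli-1*, against 9.30 and 9.22 in Col-0, and a log2 fold change of 0.19 (SE 0.12).

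Paralogs for ribophorin I and for the DAD1 subunit had similar values. The ribophorin I genes AT1G76400 and AT2G01720 had log2 fold changes of 0.13 and 0.15, and *DAD1* (AT1G32210) and *DAD2* of 0.12 and 0.19. *DGL1* (AT5G66680), the OST48 subunit, was at 0.12 and *HAP6* (AT4G21150), the ribophorin II subunit, at 0.05. The OST3/OST6 gene AT1G61790 was at -0.03. Its paralog AT1G11560 was well above background on 1 of 2 *bli-1* arrays and on 0 of 2 Col-0 arrays, with intensities of 20 and 78.5 in *bli-1* and 21 and 22.5 in Col-0. Its log2 fold change depended on how the background was treated. It was 0.19 in the main setting (limma adjusted p = 0.640), 0.71 with a normexp offset of 0, 1.79 after subtraction of the local background and -0.34 under 75th percentile scaling after normexp, so neither a direction nor a fold change is read from it. *HAP6* and *ERDJ2B* lie on chromosome 4 with 2 protein-coding genes between them.

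**Figure D3:**
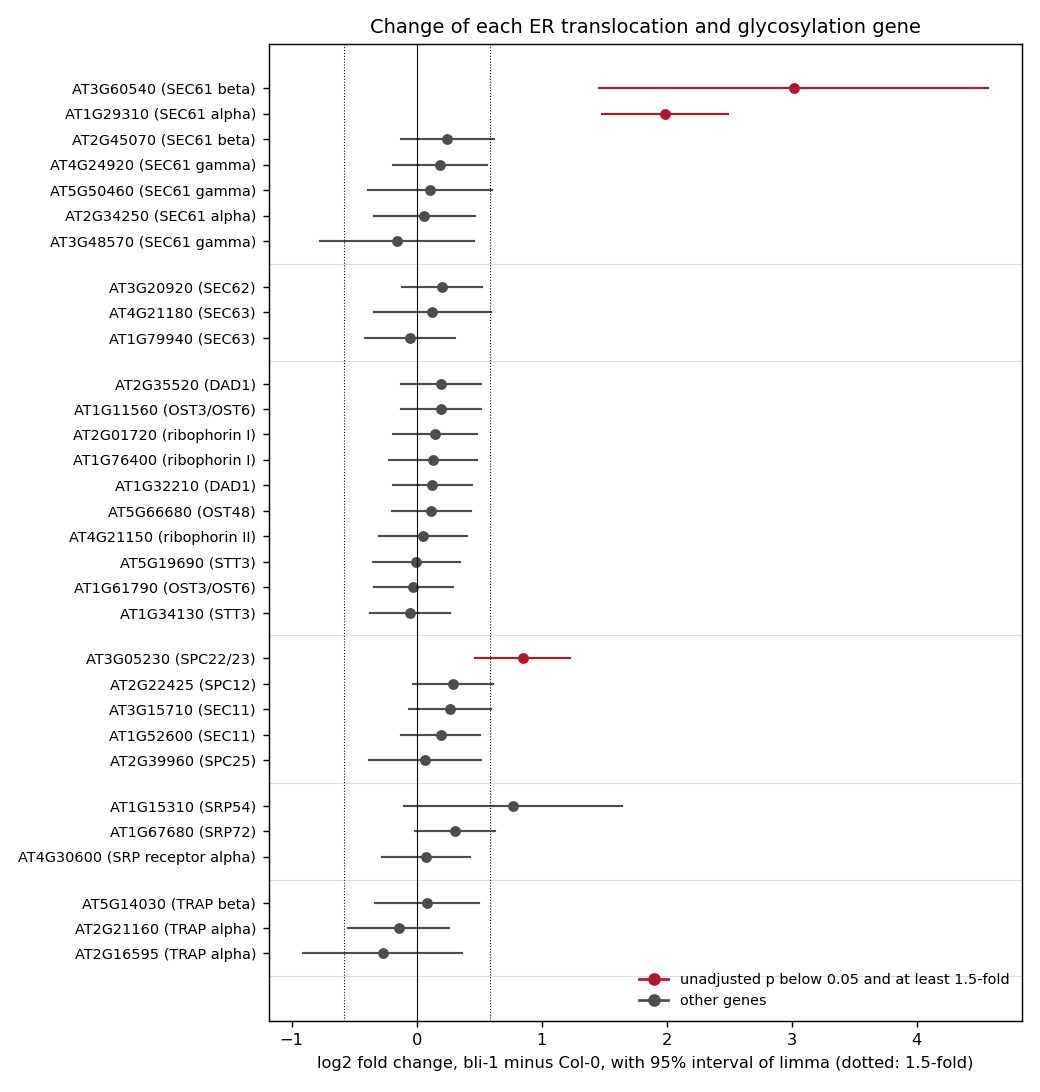
Log2 fold change of each of the 31 genes (x axis, *bli-1* minus Col-0, points) with its 95% interval from limma (bars), grouped by role and ordered within a group by size. The 3 genes with an unadjusted p below 0.05 and at least a 1.5-fold change are in red, and the intervals of oligosaccharyltransferase lie between the dotted lines of a 1.5-fold change. That of AT1G11560 is for a gene near background and depends on the offset.

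Of the targeting genes, SRP54A and SRP72 had the larger values. SRP54 is the SRP subunit that binds the signal peptide. *SRP54A* (AT1G15310, chromosome 1) gave log2 signals of 7.53 and 8.49 in *bli-1*, against 7.20 and 7.29 in Col-0. Both *bli-1* arrays were above both Col-0 arrays, but replicate 1 by 0.29 over the Col-0 mean and replicate 2 by 1.25. The gene has 1 probe. The log2 fold change of 0.77 (SE 0.33, 95% interval -0.10 to 1.64, limma unadjusted p = 0.0728, adjusted p = 0.555) rests on *bli-1* replicate 2, and without that array it was 0.31. This array also stood apart at the dim end, where its 25th percentile of intensity was 129.5, against 29 for the other *bli-1* array and 27 and 28.5 for the Col-0 arrays, and *SRP54A* is a dim gene with intensities of 129 and 439.5 in *bli-1* and 65 and 89 in Col-0. The part of the dim end in the value of *SRP54A*, or in those of other dim genes and probes, was not tested. The SRP54 paralogs AT1G48900 and AT5G49500 had log2 fold changes of 0.09 (SE 0.13) and 0.16 (SE 0.19).

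SRP72 (AT1G67680), a scaffold subunit of the SRP, had the smallest p of the targeting genes (limma unadjusted p = 0.0556, adjusted p = 0.515). Its log2 signals were 9.82 and 9.75 in *bli-1*, against 9.51 and 9.45 in Col-0. The arrays were separate by genotype and the replicates close, with a log2 fold change of 0.31 (SE 0.12, 95% interval -0.01 to 0.63). The α subunit of the SRP receptor (AT4G30600) had a log2 fold change of 0.08 (SE 0.14), with overlapping arrays.

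The TRAP complex sits beside the channel and helps some chains to insert. Its median log2 fold change was -0.15, or 0.06 without *bli-1* replicate 2, and the arrays of all 3 genes overlapped. TRAPα (AT2G16595) had the smallest p of the group (limma unadjusted p = 0.317) and 8.05 and 7.40 in *bli-1*, against 8.03 and 7.96 in Col-0. Only *bli-1* replicate 2 was low after normalization, and the log2 fold change of -0.27 (SE 0.24) became 0.06 without it. Before any correction this array was not low, with intensities averaged over 2 probes of 228.8 and 233 in *bli-1* and 149.2 and 190.5 in Col-0. This gene too is dim, and the part of the dim end of *bli-1* replicate 2 in its value was not tested. The TRAPα gene AT2G21160 was at -0.15 (SE 0.15) and TRAPβ (AT5G14030) at 0.08 (SE 0.16).

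Apart from the 4 genes with large values, the set as a whole sat slightly above 0. The median log2 fold change of the 31 genes was 0.12, against -0.0046 for all loci and -0.03 for loci above background on all arrays, and of the 27 other genes it was again 0.12. Of the 31 genes 24 were above 0 (77.4%, against 49.3% of all loci), and of the 27 other genes 20 were (74.1%). In 16 of 31 both *bli-1* arrays lay above both Col-0 arrays (51.6%, against 22.7% of all loci), and in 0 of 31 both lay below, as they did in 24.1% of all loci. Among the 27 other genes both lay above in 12 (44.4%). The median was 0.17 above the Col-0 mean on *bli-1* replicate 1 and 0.08 above it on replicate 2, where all loci had medians of -0.0015 and -0.015. The size of this shift depends on the corrected signal and the scaling together. Scaling to the 75th percentile after normexp gave the largest difference from all loci, 0.23 (medians of 0.13 and -0.09). With the scanner software's corrected signal scaled to the 75th percentile the medians were 0.18 for the set and 0.18 for all loci, a difference of 0.0024, where under the other settings the set lay 0.07 to 0.23 above all loci.

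**Figure D4:**
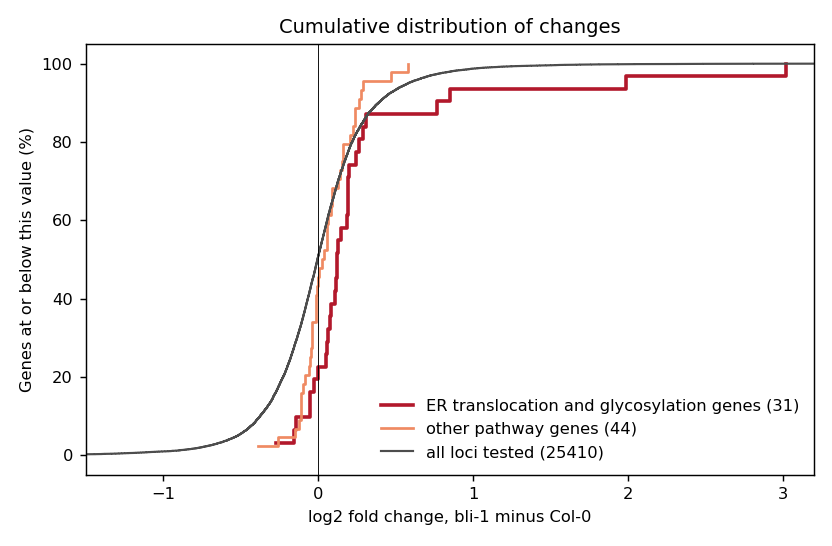
Share of genes in percent (y axis) at or below each log2 fold change (x axis, *bli-1* minus Col-0, cut at -1.5 and 3.2) for the 31 genes of ER translocation and glycosylation, 44 other genes of the same pathway and all 25410 loci. The line of the 31 genes is shifted to the right of 0 at its middle and ends in an upper tail of 4 genes, where the largest value of the other pathway genes is 0.58.

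The 45 other genes of the pathway that were listed cover further SRP and signal peptidase subunits, insertion of tail-anchored proteins, assembly of the dolichol-linked glycan and trimming of the N-glycan. Of these 44 were tested, 24 above and 20 below 0, with a median log2 fold change of 0.03. With a 1.5-fold change 0 of 44 passed an unadjusted p of 0.05 in limma, where 3.01% of all loci did as higher and 2.98% as lower. At any fold change 2 of 44 passed it, where 11.8% of all loci did. The dolichol kinase gene AT3G45040 had 10.33 and 10.34 in *bli-1*, against 9.69 and 9.83 in Col-0, which is a log2 fold change of 0.58 (SE 0.13, limma unadjusted p = 0.00690, adjusted p = 0.254). *GPT* (AT2G41490), which adds the first sugar phosphate to dolichol phosphate, had 10.79 and 10.63 in *bli-1*, against 10.30 and 10.18 in Col-0, which is a log2 fold change of 0.47 (SE 0.14, limma unadjusted p = 0.0195, adjusted p = 0.364). In both genes the genotypes did not overlap. AT3G57220, the other listed gene for the step of *GPT*, had a log2 fold change of 0.09 (SE 0.17), and its arrays overlapped. The 19 tested genes of dolichol-linked glycan assembly had 10 values above and 9 below 0 and a median of 0.0075. The 7 genes of N-glycan trimming had a median of -0.04, the 10 further targeting and translocation genes 0.09, and the 2 for tail-anchored proteins 0.05. A list of 6 further genes had a median of -0.03. It held subunits of signal peptidase and oligosaccharyltransferase and the signal peptide peptidase gene *SPP* (AT2G03120), a separate protease.

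AT1G29310, AT3G60540 and AT3G05230 kept an unadjusted p below 0.05 and at least a 1.5-fold change under all 16 alternatives, with log2 fold changes of 1.75 to 2.22 for AT1G29310, 2.19 to 3.92 for AT3G60540 and 0.72 to 0.99 for AT3G05230. With slide as a block, which compares *bli-1* replicate 2 with both Col-0 arrays on their shared slide, all 4 were called higher. The log2 fold changes were then 1.93 for AT1G29310 (limma adjusted p = 0.00115), 2.59 for AT3G60540 (adjusted p = 0.0159), 0.81 for AT3G05230 (adjusted p = 0.00979) and 1.25 for *SRP54A* (adjusted p = 0.00119). TRAPα (AT2G16595) was called lower in that comparison (-0.60, adjusted p = 0.0159). Of the 31 genes 12.9% were then called higher, against 8.12% of all loci, while 7.57% of all loci were called lower. In this comparison *bli-1* is represented by 1 array, whose spread is assumed to be that of Col-0. Leaving out *bli-1* replicate 1 also gave 4 genes called higher and 0 called lower, where 7.51% of all loci were called higher and 6.47% lower. AT1G29310 alone was called with dim probes left out (limma adjusted p = 0.0404, with 0.363% of loci called higher and 0.116% lower) and with the trend and robust options of eBayes (adjusted p = 0.0258, with 0.287% higher and 0.122% lower).

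**Figure D5:**
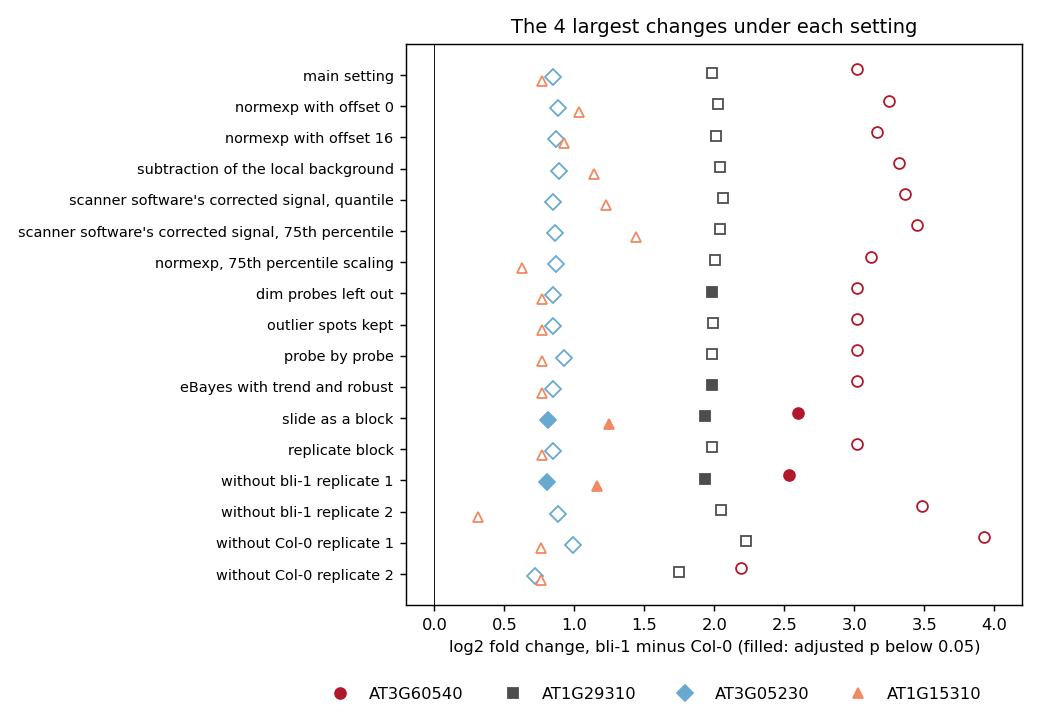
Log2 fold change (x axis, *bli-1* minus Col-0) of the 4 genes with the largest changes under the main setting and the 16 alternatives (y axis). Filled symbols have an adjusted p below 0.05. AT1G29310 and AT3G05230 stay within narrow ranges, AT3G60540 spans 2.19 to 3.92, and *SRP54A* (AT1G15310) drops to 0.31 without *bli-1* replicate 2.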

How the data were processed

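Per array, the authors deposited spot and local background intensities as read by Agilent Feature Extraction 11.0.1.1, not normalized between arrays. Median intensities were background corrected by the normexp method with an offset of 50 (limma 3.58.1, R 4.3.3), control spots were left out, outlier spots set to missing, and values log2 transformed and quantile normalized, after the methods of the study, which do not give the kind of background correction. Probes were matched to loci by RefSeq accession (34432 of 35703 gene spots with an accession), and spots and probes were averaged per locus. Genotypes were compared with lmFit and eBayes without other terms, with Benjamini-Hochberg adjustment over 34290 genes and transcripts. The code was tested on simulated data. Whether a probe also binds transcripts of a paralog was not tested.

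The genes, lists and tests were chosen with earlier results of these data known. Per-array values are given for genes past an unadjusted p of 0.05 and 1.5-fold, their paralogs and the gene with the smallest p of each role, and others such as *ERDJ2B*, *SRP54A*, SPC12, AT4G04200, AT5G02502, AT3G45040 and *GPT* were added after their values were seen. Alternatives changed the background correction, scaling, dim and outlier filters, probe summary, test, blocks and arrays. The offset pulls dim genes toward 0, and 2 arrays per genotype limit the precision.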

Additional observations from a re-analysis of the deposited data

How the results depend on the processing

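In the main comparison 0 of the 31 genes were called in either direction. The count called higher was 1 with dim probes left out (0.363% of all loci) and 1 with trend and robust options of eBayes (0.287% of all loci, AT1G29310 in both), 4 with slide as a block (8.12% of all loci), 3 by the unadjusted p (3.01% of all loci), and 0 to 4 when 1 array was left out. It was 4 only without *bli-1* replicate 1, where 7.51% of all loci were called higher. With slide as a block 1 gene was called lower (7.57% of all loci) and 1 was at least 1.5-fold lower (AT2G16595 in both). The count at least 1.5-fold higher, 4 in the main setting, was 3 without *bli-1* replicate 2. It was 5 with a normexp offset of 0, local background subtraction, the scanner software's signal scaled to the 75th percentile, and probe by probe. The share of all loci is given for the main setting only (4.93%). The median of the 31 genes, 0.12, ran between 0.0745 and 0.2099 with 1 array left out. Of the 31 genes 15 had the other sign under at least 1 alternative. In 13 of these the main value was within 1 SE of 0 and so had no direction, among them *ERDJ2B* (from 0.12 down to -0.57) and AT3G48570 (from -0.16 up to 0.16). From a value beyond 1 SE the sign turned for AT1G11560 with 75th percentile scaling after normexp (-0.34) and for AT2G16595, which ran between -0.55 and 0.0579 with 1 array left out. The cause was not tested. The same replicate number does not pair samples by the labels, and deviations of same-numbered replicates correlated at 0.07 (2 pairs). With the replicate block 0 genes were called, the median was 0.12 and 4 genes were at least 1.5-fold higher. Under 9 of the 16 alternatives, the replicate block among them, no locus at all was called, so counts of 0 there say nothing about these genes.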
